A study of Mus musculus with 8 samples.

Results

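A panel of 9 interferon-stimulated genes was followed in mouse primary motor cortex (M1) that carried a lentiviral short hairpin RNA (shRNA). The panel holds *Stat2*, *Irf7*, *Irf9*, *Ifit1*, *Ifit3*, *Oasl2*, *Isg15*, *Bst2* and *Ifi27*, and its genes were taken by name from 38031 genes with counts, each represented by the Ensembl transcript with the lowest number. The 8 RNA-seq libraries came from M1 of male Swiss Webster mice, 4 treated with *Fezf2 shRNA* and 4 with *non-silencing shRNA* as the control. Virus was injected at postnatal day 21 to 25, and tissue was taken 4 weeks later, at day 49 to 53. Animals of both groups received a lentiviral vector with an mCherry reporter and an shRNA embedded in miR-30 sequence, driven by a rat *Synapsin I* promoter fragment, which is active in neurons. Injection, vector backbone and the presence of a hairpin were therefore shared by the groups, which differed in the hairpin's sequence, and no uninjected cortex was compared here. The paper gives viral titres as a range and not for each group, so an equal vector dose in both groups is not shown. The dissected piece was chosen by mCherry fluorescence and held all cortical layers and the meninges, so that transduced and untransduced cells of many types were read together. In such tissue, fewer cells of a type and less RNA per cell cannot be told apart.

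Type I interferons are secreted proteins that cells make on sensing viral or misplaced nucleic acid. They bind a receptor made of IFNAR1 and IFNAR2, whose kinases JAK1 and TYK2 phosphorylate STAT proteins. STAT2 and IRF9 are subunits of a complex called ISGF3, which binds the interferon-stimulated response element in promoters of target genes. Among those targets are *Irf7*, which encodes a transcription factor for interferon genes themselves, and effectors that act against viral RNA, viral proteins or budding particles. In brain, neurons, microglia, astrocytes and vascular cells can all respond to interferon, and viral vectors and RNA hairpins are possible inputs to the nucleic acid sensors of the pathway.

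The element that ISGF3 binds was looked for first in the sequence around the members' starts. RefSeq promoters (GRCm38.p6, 250 bases before to 50 bases after each start) were found for 8 of the 9 genes, *Ifi27* being the other. The core GAAANNGAAA, searched on both strands with overlaps allowed, was present in *Stat2*, *Ifit1*, *Ifit3*, *Isg15* and *Bst2*, which is 62.5% of the matched members. It was present in 3.44% of all 32851 promoters, and in 28 of 76 matched genes of the interferon pathway lists described below (36.8%). A gene counted if any of its promoters held the core, with 9 promoters for the 8 members and 92 for the 76 genes. The 3.44% is per promoter, so these shares are not in the same unit. The following stretches of 60 bases each, upstream of the start and written 5′ to 3′ on the strand of the gene, show the matches in capitals.
*Stat2* (chr10:128270251-128270310, plus strand): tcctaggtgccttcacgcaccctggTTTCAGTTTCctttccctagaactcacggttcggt
*Ifit1* (chr19:34640769-34640828, plus strand): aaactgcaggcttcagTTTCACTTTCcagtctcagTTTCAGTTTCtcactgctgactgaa
*Ifit3* (chr19:34583365-34583424, plus strand): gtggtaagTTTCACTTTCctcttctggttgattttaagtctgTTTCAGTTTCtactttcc
*Isg15* (chr4:156200856-156200915, minus strand): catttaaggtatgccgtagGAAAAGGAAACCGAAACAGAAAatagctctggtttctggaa
*Bst2* (chr8:71537565-71537624, minus strand): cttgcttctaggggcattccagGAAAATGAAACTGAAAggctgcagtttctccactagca

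*Ifit1* and *Ifit3*, neighbours on chromosome 19, each held 2 separate copies of the core on the opposite strand, where it reads TTTCNNTTTC. *Isg15* held 3 overlapping copies and *Bst2* held 2, all on the strand of the gene, and *Stat2* held 1. In *Irf7*, *Irf9* and *Oasl2* these letters were not in the window. The other common interferon motif, TTCNNNGAA, the core of the gamma-activated site, occurred in 1 member, *Bst2*, where it overlaps the element shown above, and in 8.30% of all promoters. These matches describe sequence alone, since no binding was measured.

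**Figure D1:**
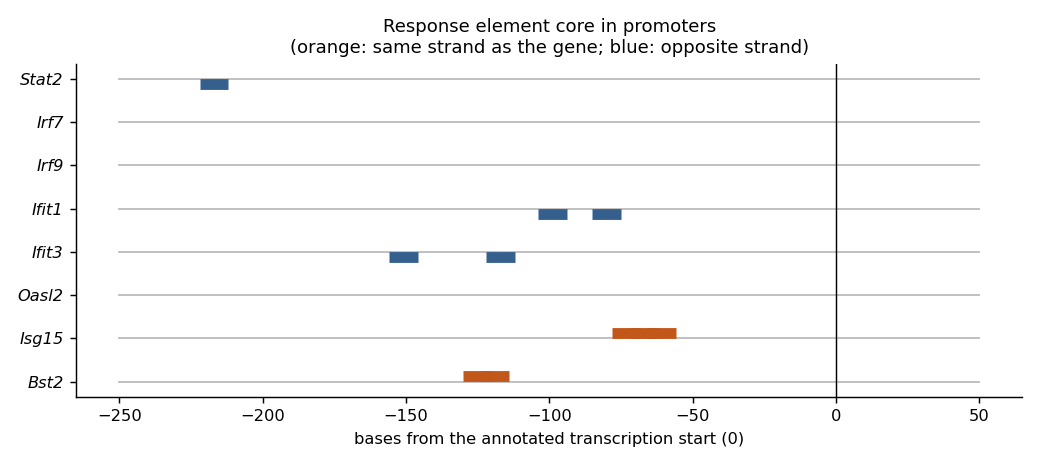
Position of each GAAANNGAAA match (coloured bars, with strand given in the title) relative to the annotated transcription start, in bases, for the 8 members with a RefSeq promoter. The matches of 5 genes lie between 222 and 57 bases before the start, and *Irf7*, *Irf9* and *Oasl2* have none.

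The libraries were of nearly equal depth, with 54684016 to 58003814 counts on genes. Values below are normalized counts, that is, raw counts scaled to a common effective library size, the mean of the 8. The targeted gene, *Fezf2*, had 721 ± 40.3 normalized counts in controls and 593 ± 22.8 with *Fezf2 shRNA* (SD, n = 4 each), and the groups did not overlap (exact permutation test, two-sided, p = 0.0286, the smallest that 4 against 4 allows). It was not called by edgeR, with an estimate of -0.29 and an adjusted p of 0.0824, or -0.18 and 0.46 with an offset for gene length. Across all genes, the quasi-likelihood test of edgeR, with p adjusted by Benjamini and Hochberg's method, called 208 of 9959 genes with more than 8 CPM (counts per 1e+06 counts) in at least 4 libraries (2.09%), 195 of them higher. The threshold was an adjusted p of 0.05 or less together with a log2 fold change of 0.2 or more in size. With an offset for gene length 1 gene was called, and without *non-silencing shRNA* replicate 1 none was called, with 1568 at an unadjusted p under 0.05. DESeq2 called 752.

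Most of the members were expressed at low levels. Only *Stat2* passed the filter of 8 CPM, 7 of the 9 passed 1 CPM, and *Isg15* and *Bst2* passed neither. *Isg15* had 11 to 44 raw counts per library and *Bst2* 14 to 48, so that single libraries of these genes carry a large counting error. Changes of *Stat2* are taken from the test with the 8 CPM filter, and those of the other 8 members from a test of all 29623 genes with any count.

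None of the 9 members differed between *Fezf2 shRNA* and *non-silencing shRNA* past the threshold. The share called over all genes was 2.09% with the 8 CPM filter and 0.348% without a filter, so that a count of 0 of 9 does not set the members apart. None of the members had an unadjusted p under 0.05 from edgeR, and DESeq2 called none of the 7 for which it gave an adjusted p, the others being *Isg15* and *Bst2*. In all 9 the range of the 4 *Fezf2 shRNA*-treated libraries overlapped that of the 4 controls. The groups did not overlap in 11.4% of genes past 8 CPM and in 9.98% of those past 1 CPM. With shares of that size, 0 of 9 does not set the members apart here either, and *Isg15* and *Bst2* passed neither filter. Estimated log2 fold changes lay above 0 in 8 members and their median was 0.12. In the test without a filter, from which all members but *Stat2* were taken, 14579 of 29623 genes lay above 0. The median over all genes was -0.006 in that test and -0.03 in the test at 8 CPM. Genes with a span like that of the members, 1395 to 22274 bases, had a median of -0.07 in the test without a filter. With the gene length offset the panel's median was 0.23 and that of genes of like span 0.01. The panel's median moved between -0.01 and 0.47 with each library left out in turn, and the number of members above 0 between 4 and 8.

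Members of the signalling complex are given first. *Stat2* (ENSMUSG00000040033, chromosome 10, 128270576 to 128292849, plus strand) encodes the STAT subunit specific to type I and type III interferon signalling. Its normalized counts were 439, 519, 475 and 545 in *non-silencing shRNA* replicates 1 to 4 and 496, 513, 467 and 610 in *Fezf2 shRNA* replicates 1 to 4. The groups lay over each other, and *Fezf2 shRNA* replicate 4 was the highest of the 8 libraries. The log2 fold change was 0.07 (standard error 0.114, 95% interval -0.18 to 0.32, adjusted p = 0.765 from edgeR), the narrowest interval of the panel.

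*Irf9* (ENSMUSG00000002325, chromosome 14) encodes the DNA-binding subunit of ISGF3. It had 72.7, 79.1, 79.4 and 56.6 normalized counts in the controls and 56.0, 53.4, 40.3 and 104 with *Fezf2 shRNA*. Of the *Fezf2 shRNA*-treated libraries, 3 lay below every control, and replicate 4 lay above every control. The estimate was -0.18 (standard error 0.291, 95% interval -0.81 to 0.44, adjusted p = 0.835 from edgeR). The transcript that represents *Irf9* is a stretch of 1459 bases (55607275 to 55608733) with 2 exons inside the gene, and the widest transcript, of 6460 bases, gave 0.12. With each library left out, the estimate ran from -0.53 (without *Fezf2 shRNA* replicate 4) to -0.015 (without *Fezf2 shRNA* replicate 3).

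*Irf7* (ENSMUSG00000025498, chromosome 7, 141263183 to 141266481, minus strand) is induced by ISGF3 and amplifies interferon production. Controls had 51.1, 27.1, 81.4 and 53.7 normalized counts, and *Fezf2 shRNA*-treated libraries had 71.3, 61.5, 28.2 and 101. The highest and the second lowest of all 8 libraries belonged to the same treatment, *Fezf2 shRNA*, as replicates 4 and 3. Its log2 fold change was 0.29 (standard error 0.38, 95% interval -0.52 to 1.11, adjusted p = 0.778 from edgeR), and it ran from 0.0079 without *Fezf2 shRNA* replicate 4 to 0.57 without *non-silencing shRNA* replicate 3.

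Effectors that act on RNA varied widely between animals. *Ifit1* (ENSMUSG00000034459, chromosome 19, 34640871 to 34650009, plus strand) encodes a protein that recognises foreign RNA 5′ ends. It had 99.2, 103, 228 and 98.7 normalized counts in controls and 167, 72.6, 82.6 and 234 with *Fezf2 shRNA*. A single control, replicate 3, stood far above the other 3 and next to *Fezf2 shRNA* replicate 4. The log2 fold change was 0.07 (standard error 0.372, 95% interval -0.73 to 0.87), and it ran from -0.30 without *Fezf2 shRNA* replicate 4 to 0.47 without *non-silencing shRNA* replicate 3.

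*Ifit3* (ENSMUSG00000074896, chromosome 19, 34583531 to 34588731, plus strand), whose protein forms complexes with IFIT1, showed the widest range of the panel. Controls had 214, 183, 501 and 286 normalized counts, and *Fezf2 shRNA*-treated libraries had 278, 341, 130 and 533. As with *Ifit1*, the highest library of each group was control replicate 3 and *Fezf2 shRNA* replicate 4, and the lowest of all was *Fezf2 shRNA* replicate 3. From lowest to highest this was a 4.10-fold range, within which the estimated difference between treatments was 0.11 (standard error 0.359, 95% interval -0.66 to 0.88). Both *Ifit* genes have close copies beside them on chromosome 19, among them *Ifit3b*, and how reads that fit several copies were counted is not given in the sources used here, so the split between copies is uncertain.

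*Oasl2* (ENSMUSG00000029561, chromosome 5, 114896936 to 114912234, plus strand) belongs to the family of oligoadenylate synthetases, which respond to double-stranded RNA. It carried the largest estimate of the panel. Its counts were 98.2, 70.8, 162 and 62.3 after normalization in controls and 199, 115, 59.4 and 196 with *Fezf2 shRNA*. *Fezf2 shRNA* replicates 1 and 4 lay above every control, while replicate 3 was the lowest of all 8. The log2 fold change of 0.53 (standard error 0.369, 95% interval -0.26 to 1.32) had an adjusted p of 0.611 from edgeR and stayed between 0.33 and 0.88 with each library left out. Its neighbour *Oasl1* is a paralog, with which reads could be shared.

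The remaining effectors act on proteins and membranes. *Isg15* (ENSMUSG00000035692, chromosome 4, 156199424 to 156200818, minus strand), a ubiquitin-like protein that is attached to other proteins, had 12.8, 15.6, 43.1 and 14.4 normalized counts in controls and 37.7, 19.1, 11.1 and 25.2 with *Fezf2 shRNA*. Control replicate 3 was the highest of the 8 libraries and *Fezf2 shRNA* replicate 3 the lowest. The estimate of 0.12 had a standard error of 0.477 and a 95% interval of -0.91 to 1.14, which is the widest of the panel.

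*Bst2* (ENSMUSG00000046718, chromosome 8, 71534255 to 71537456, minus strand) encodes tetherin, which holds budding virus at the cell surface. Its normalized counts were 47.1, 14.6, 35.3 and 13.4 in controls and 44.8, 16.1, 26.2 and 35.3 with *Fezf2 shRNA*. Both groups spread over about the same range, and replicate 1 was the highest of each. Its estimate was 0.15 (standard error 0.446, 95% interval -0.81 to 1.10).

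*Ifi27* (ENSMUSG00000064215, chromosome 12, 103434212 to 103440239, plus strand) encodes a small membrane protein. It had 275, 252, 304 and 305 normalized counts in controls and 280, 291, 377 and 368 with *Fezf2 shRNA*. *Fezf2 shRNA* replicates 3 and 4 lay above every control and replicates 1 and 2 lay among them. The log2 fold change was 0.21 (standard error 0.135, 95% interval -0.08 to 0.50), with the smallest exact permutation p of the 9 genes (two-sided exact permutation test, p = 0.229).

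**Figure D2:**
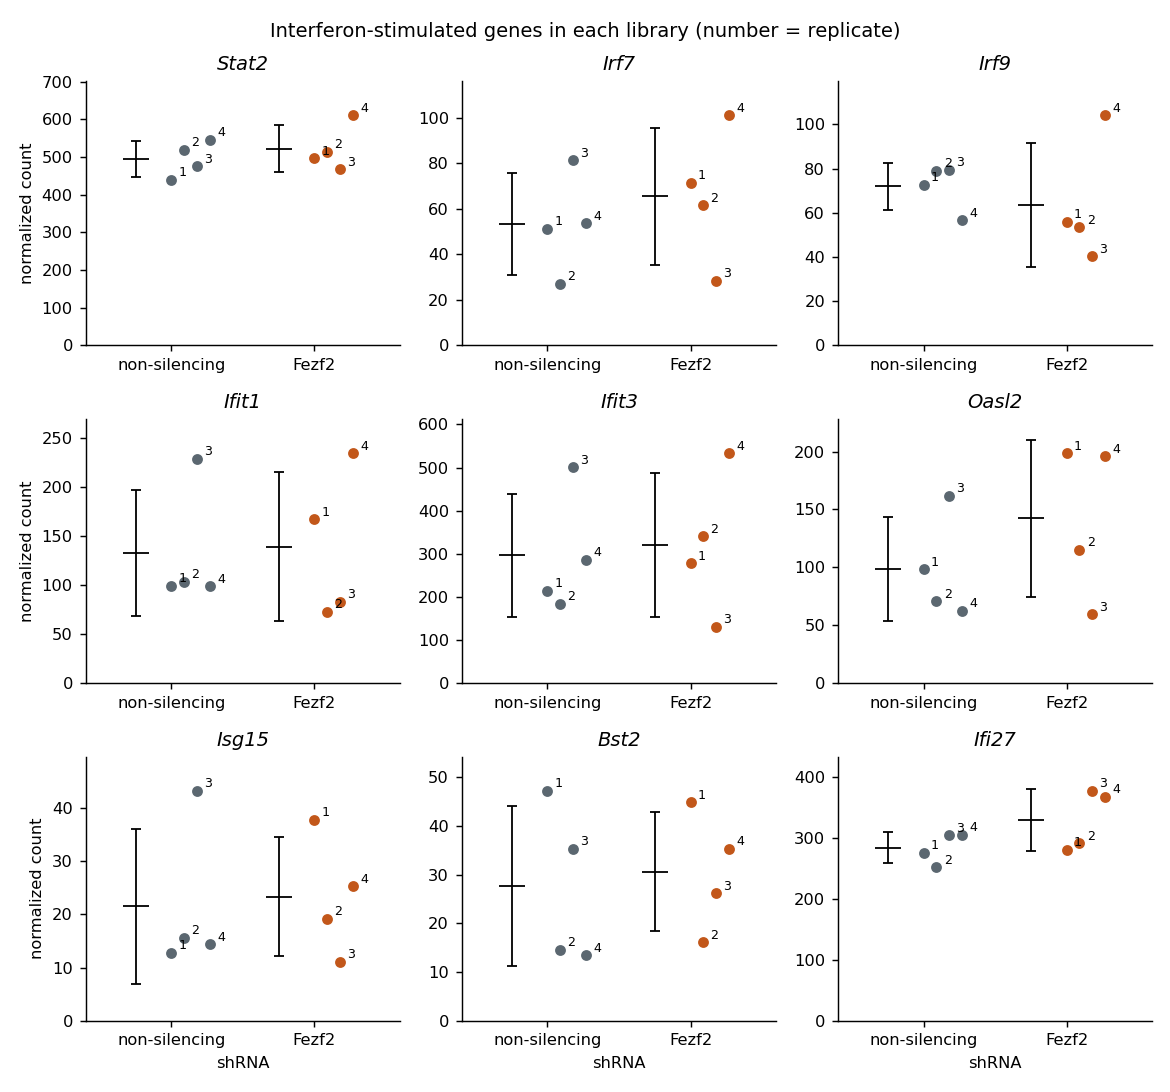
Normalized counts of each member (vertical axis, from 0, with its own scale per gene) in the 4 *non-silencing shRNA* (grey) and 4 *Fezf2 shRNA* (orange) libraries. Points carry the replicate number, and the bar with caps is the mean ± SD of 4. All 9 genes overlap between groups, and control replicate 3 and *Fezf2 shRNA* replicate 4 are high in several of them.

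**Figure D3:**
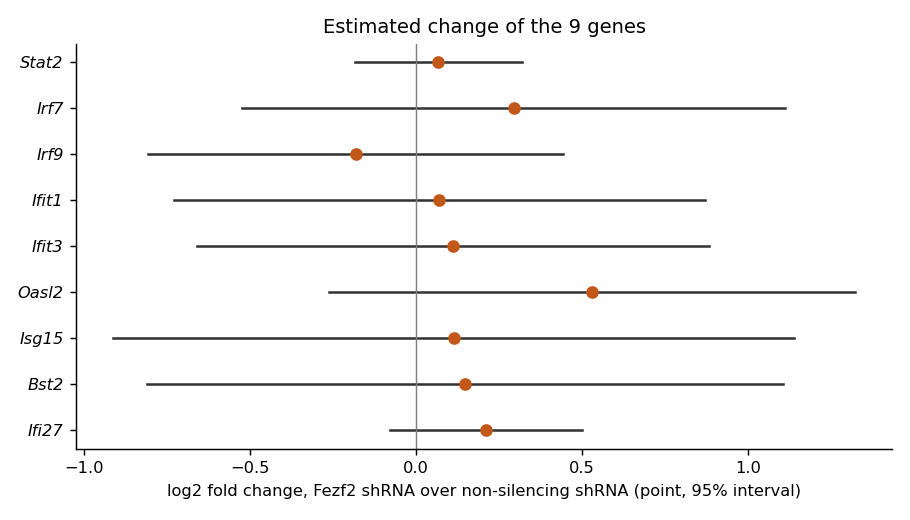
Estimated log2 fold change of each member (point) with its 95% interval (line), *Fezf2 shRNA* over *non-silencing shRNA*, from edgeR. Every interval spans 0, and those of *Stat2* and *Ifi27* are the narrowest.

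Levels of the members relative to each other can be compared only per length of the counted interval. In normalized counts per kb, averaged over the 8 libraries, *Ifit3* (59.3), *Ifi27* (50.8) and *Irf9* (46.4) led, followed by *Stat2* (22.8), *Irf7* (18.0), *Isg15* (16.0), *Ifit1* (14.9), *Bst2* (9.09) and *Oasl2* (7.86). Only between *Irf9* and *Stat2* did neighbours in this order not overlap in their ranges over the 8 libraries. The counted intervals include introns, which make up most of the interval in 7 of the 9 genes, and total RNA was sequenced, so that the order is one of reads along the gene and not of mRNA.

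In all 9 members the libraries of each group ranged more widely than the group means differed. In 6 of the 9 the highest library exceeded the lowest more than 3-fold: *Ifit3* (4.10), *Isg15* (3.89), *Irf7* (3.73), *Bst2* (3.51), *Oasl2* (3.34) and *Ifit1* (3.23). *Stat2*, by contrast, spanned 1.39-fold and *Ifi27* 1.50-fold. The biological coefficient of variation, which edgeR estimates as the spread between libraries beyond counting error, was 37.6% for *Ifit3* where genes of its level had 17.3%, and 39.2% for *Ifit1* against 25.8%. It was above the trend in 6 of the 9 members, and below it in *Stat2* (12.1% against 14.2%), *Irf9* and *Ifi27*.

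High and low libraries were often the same from gene to gene. Averaged over the 9 members on the log2 scale and centred per gene, the level was -0.10, -0.39, 0.50 and -0.28 in *non-silencing shRNA* replicates 1 to 4, and 0.32, -0.14, -0.52 and 0.61 in *Fezf2 shRNA* replicates 1 to 4. Both the highest and the lowest mean thus came from *Fezf2 shRNA*-treated animals. *Fezf2 shRNA* replicate 4 was among the 3 highest of the 8 libraries in 9 of 9 members, control replicate 3 was the highest control in 6 of 9, and *Fezf2 shRNA* replicate 3 was the lowest of its group in 6 of 9. Over the 36 pairs of members, Pearson's r across the 8 libraries had a median of 0.45, with *Irf7* and *Ifit3* the closest pair (0.92). The 10 pairs among *Irf7*, *Oasl2*, *Ifit1*, *Isg15* and *Ifit3*, genes grouped here after their values were seen, lay between 0.71 and 0.92, and the 15 pairs with *Stat2* or *Ifi27* had a median of 0.19. These correlations share the same 8 libraries and their normalization, and are given as a description.

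The order of libraries could be read in genes outside the panel. Of 54 further interferon-stimulated genes on the pathway lists, 38 passed 1 CPM. *Fezf2 shRNA* replicate 4 was the highest of its group in 31 of these 38 (81.6%) and *Fezf2 shRNA* replicate 3 the lowest in 32 (84.2%), where the shares over every gene past 1 CPM were 23.6% and 22.0%. Among controls, replicate 3 was the highest in 20 of 38 (52.6%, against 25.8% of every gene) and replicate 2 the lowest in 24 (63.2%, against 28.5%). The widest swing, named after its values were seen, was in *Iigp1*, an interferon-inducible GTPase, with 48.3 to 577 normalized counts over the 8 libraries.

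**Figure D4:**
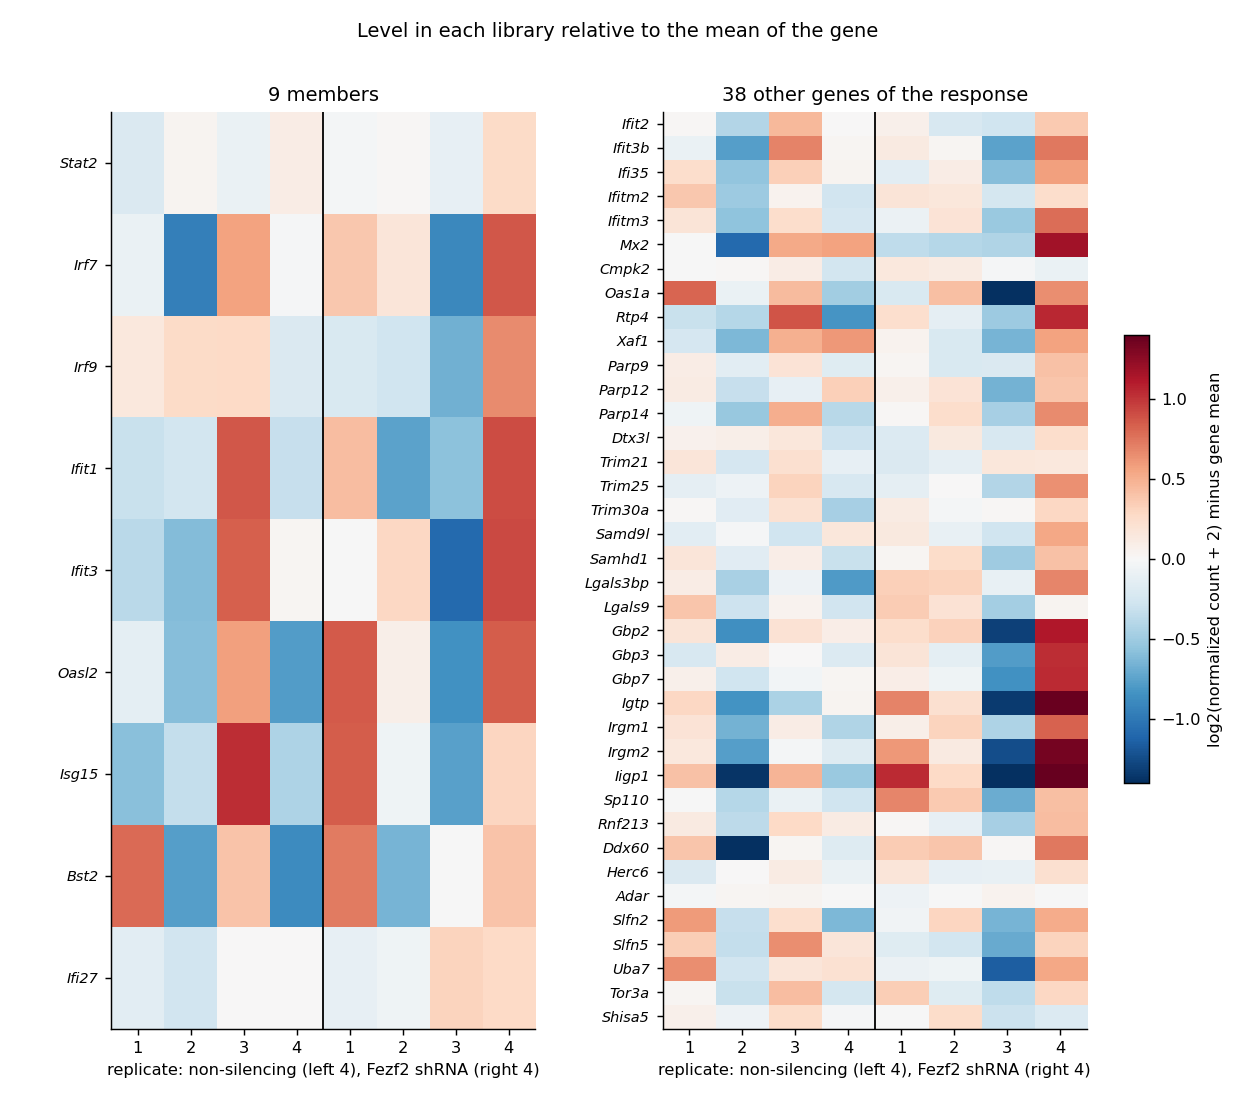
Colour gives log2(normalized count + 2) minus the mean of the gene, for 9 members (left) and 38 further interferon-stimulated genes past 1 CPM (right), in list order, over the 4 *non-silencing shRNA* and 4 *Fezf2 shRNA* libraries split by the black line. *Fezf2 shRNA* replicate 4 is red and *Fezf2 shRNA* replicate 3 blue in most genes, and values past the ends of the scale take the end colour.

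Cell type markers were set beside these libraries. Neuronal markers, which cortex should hold, were present in every library (7 genes), at 194868 to 222571 normalized counts in sum per library. Microglial markers (the sum of 10 genes) had 8609 normalized counts in *Fezf2 shRNA* replicate 3, the lowest of 8, and 12544 in *Fezf2 shRNA* replicate 4, the highest, but 10557 in control replicate 3, which lies within the control range of 9111 to 12441. Astrocyte markers (7 genes) summed to 49201 to 55588 in controls and 50130 to 54138 with *Fezf2 shRNA*, with 55137 in control replicate 3, 52626 in *Fezf2 shRNA* replicate 3 and 50130 in *Fezf2 shRNA* replicate 4. The T cell markers *Cd3e*, *Cd3d* and *Cd8a* had at most 9.82 normalized counts in any library. The 10 lymphocyte markers summed to 722 to 1366 in controls and 538 to 687 with *Fezf2 shRNA*, without overlap. Most of that came from *Ighm* (183 to 712) and *Ptprc* (148 to 577). *Ighm* had 519 to 712 in controls and 183 to 486 with *Fezf2 shRNA*, without overlap. *Ptprc* overlapped, with 156 to 577 and 148 to 310. Of the 10 markers, 4 had an estimate above 0 in the test without a filter, so the sums do not describe lymphocyte markers in general. All 6 oligodendrocyte markers had lower means with *Fezf2 shRNA* (median log2 fold change -0.53). None was called by edgeR, though 4 of these 6 had an unadjusted p under 0.05 in the test at 8 CPM. Of 65 markers in 8 lists, 34 passed 8 CPM and 0 were called by edgeR, with 9 at an unadjusted p under 0.05, and DESeq2 called 4. Over all 9959 genes, 208 were called by edgeR, 1947 had an unadjusted p under 0.05 and 752 were called by DESeq2. The part of these cells in the levels of the members was not tested.

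The genes most like the panel were found by Pearson's r, over the 8 libraries, with the mean of the members. Among genes past 8 CPM they were *Gm12185* (0.93), *Gm15614* (0.92), *C4a* (0.91), *C4b* (0.90) and *Rtn4ip1* (0.88). *C4a* and *C4b* encode complement component 4 and are near-identical copies, whose reads cannot be cleanly separated, and *C4b* ran from 644 to 3088 normalized counts. At this filter 1 of the 20 most alike genes and 3 of the 100 most alike were on the interferon pathway lists. These lists make up 0.161% of the 9958 genes compared at 8 CPM. The median r was 0.26 over the 16 pathway genes compared and -0.07 over all genes. When the filter was lowered to 1 CPM, a choice made after seeing the data, 7 of the 20 most alike genes and 15 of the 100 most alike were on the interferon pathway lists, which make up 0.401% of the 16474 genes compared. They were *Tor3a* (0.96), *Rtp4* (0.93), *Ddx58* (0.93), *Ifit3b* (0.92), *Eif2ak2* (0.92), *Ifit2* (0.90) and *Parp14* (0.89). The median r was 0.62 for the 66 pathway genes compared and 0.00 for all genes.

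Genes upstream and downstream of the panel were described from 5 lists with 94 genes. Of these, 16 passed 8 CPM and 1 was called, as higher, where 2.09% of all genes were called and 1.96% were called as higher. At 1 CPM it was 1 of 66, where 0.51% were called. The called gene was *Irf2*, an interferon regulatory factor that can repress response elements.

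*Irf2* (chromosome 8) had 1681, 1955, 1755 and 1702 normalized counts in controls and 2345, 2476, 2756 and 2189 with *Fezf2 shRNA*. Every *Fezf2 shRNA*-treated library lay above every control, and it rose by 0.45 on the log2 scale (standard error 0.0787, adjusted p = 0.0276 from edgeR). The gene spans 107727 bases, and with the offset for gene length the change was 0.35 (adjusted p = 0.157 from edgeR). The call was also lost without *Fezf2 shRNA* replicate 1, 3 or 4 and without *non-silencing shRNA* replicate 1 or 4, with changes between 0.40 and 0.50 over all libraries left out in turn. Its order of libraries was not that of the panel, with the highest value in *Fezf2 shRNA* replicate 3.

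Sensors of nucleic acid gave no call among 10 genes past 1 CPM, and their median log2 fold change was -0.10. *Ddx58*, which encodes RIG-I, a sensor of RNA with a 5′ triphosphate, had 214 ± 67.5 normalized counts in controls and 243 ± 59.4 with *Fezf2 shRNA* (SD, n = 4 each). *Ifih1*, which encodes MDA5, a sensor of long double-stranded RNA, had 264 ± 51.6 and 249 ± 53.1, and *Eif2ak2*, which encodes the kinase PKR, 319 ± 45.0 and 348 ± 77.5. For each of these the difference was smaller than the spread between libraries. The longest exact match of the 19-base sense strand of the *Fezf2 shRNA* to an annotated transcript of a member was 6 to 9 bases, and that of its reverse complement 6 to 8, whereas *Fezf2* transcripts held all 19.

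Interferon genes were at or close to 0. *Ifna4* and *Ifnl2* were not among the genes with any count. If their transcripts were counted, no count allows an expected total of up to 3 per gene over the 8 libraries, by counting error alone. *Ifnb1* had 2 counts and *Ifna2* 1 count over all 8 libraries together. *Ifng* had 10 counts over all 8. Transcripts of the receptor were present at even levels, with 1528 to 1688 normalized counts of *Ifnar1* (log2 fold change -0.05, standard error 0.0577) and 407 to 555 of *Ifnar2* (-0.18, standard error 0.102). None of the 4 ligand and receptor genes past 1 CPM was called.

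Among the signal transducers only *Irf2* was called by edgeR. *Jak1* had 6225 ± 697 normalized counts in controls and 6605 ± 566 with *Fezf2 shRNA*, and *Tyk2* had 450 ± 74.6 and 393 ± 18.6 (SD, n = 4 each). *Irf3*, the factor that starts interferon transcription, was named after its values were seen. It had 360 to 548 normalized counts in controls and 257 to 310 with *Fezf2 shRNA*, without overlap, and its estimate of -0.55 (standard error 0.147, edgeR adjusted p = 0.142) was past the threshold only with DESeq2 (adjusted p = 0.0201). Both values are from tests without a filter, since *Irf3* did not pass 8 CPM.

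Negative regulators and the other targets were not called by edgeR. *Usp18*, which removes ISG15 from proteins and blocks the receptor, had 74.6 ± 42.9 normalized counts in controls and 74.8 ± 28.7 with *Fezf2 shRNA* (SD, n = 4 each). *Ifitm3*, which blocks entry of virus, had 112 ± 28.5 and 131 ± 51.7, and *Mx1*, a GTPase active against viruses and under 1 CPM here, had 39.4 ± 24.7 and 51.3 ± 38.8. In all 3 the highest library was control replicate 3 or *Fezf2 shRNA* replicate 4. Of the 38 further interferon-stimulated genes past 1 CPM, 27 had a log2 fold change above 0, with a median of 0.08. Over every gene past 1 CPM, 7309 of 16481 lay above 0, with a median of -0.03. Among the 38, 1 gene, *Lgals3bp*, had an unadjusted p under 0.05 from edgeR. *Lgals3bp*, which encodes a secreted galectin-binding protein and was named after its values were seen, had 355 ± 95.0 and 537 ± 118 normalized counts (log2 fold change 0.59, edgeR adjusted p = 0.158), and DESeq2 gave an adjusted p of 0.0477.

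**Figure D5:**
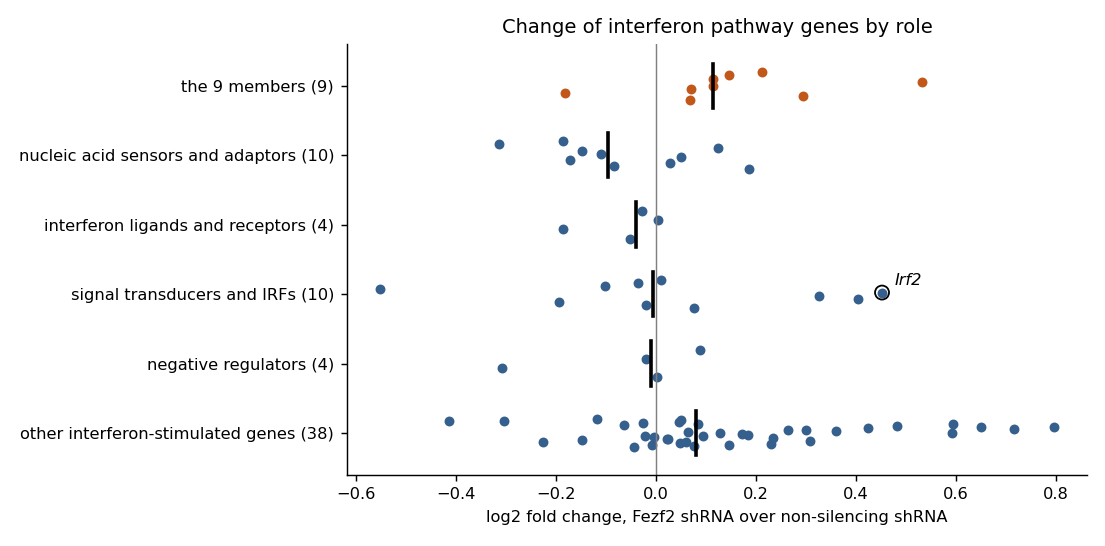
Log2 fold change, *Fezf2 shRNA* over *non-silencing shRNA*, of the 9 members (orange) and of the genes past 1 CPM on each pathway list (blue, number in brackets). Black lines are medians, which lie between -0.10 and 0.12, and the circled gene, *Irf2*, is the only pathway gene called by edgeR.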

How the data were processed

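Total RNA of M1 was sequenced as paired ends (TruSeq libraries, HiSeq 2500). The authors aligned reads to mm10 (GRCm38) with TopHat2 2.1.1 and counted them per Ensembl transcript interval, introns included, with BEDTools 2.26.0 multiCov, and deposited raw counts per transcript and library. The deposited DESeq2 table holds the authors' own comparison (base mean, log2 fold change, standard error, statistic, p and adjusted p) and was not used here. How reads were assigned by strand is not given in the sources used here.

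Transcripts were matched to genes with GENCODE M21 (91320 of 94647, the rest with 1.82% of counts), and each gene was represented by its lowest-numbered transcript. No interval of a member overlaps that of another annotated gene. Tests used edgeR 4.0.16 (TMM, quasi-likelihood, Benjamini-Hochberg over all genes tested) in R 4.3.3, with DESeq2 1.42.0 as an alternative, and exact permutation tests of single values in Python 3.11.15 with scipy 1.17.1. Groups and replicate numbers came from the titles of the samples, and each library was taken as 1 animal. If libraries share an animal, p-values measure only the spread between libraries. Members and gene lists were chosen with earlier results of these data known. The genes named are the 9 members, *Fezf2*, every pathway gene past the threshold, further pathway genes listed by name and the 5 genes most like the panel. Others are marked in the text, except *Ighm*, *Ptprc*, *Cd3e*, *Cd3d* and *Cd8a* from the marker lists, *Ifna4*, *Ifnl2*, *Ifnb1*, *Ifna2* and *Ifng* from the ligand list, and paralogs. A few genes, some of them under this rule, are not reported here, though list totals include them. Alternatives were other normalizations, filters, transcripts and tests, a replicate block, a gene length offset and each library left out in turn. The edgeR steps were tested on simulated data.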

Additional observations from a re-analysis of the deposited data

Results flagged for a closer look

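In groups of 4 libraries, the 9 members and *Fezf2* were examined for a single library far from the other 3 (20 groups, of which chance flags about 1 in 20), and 2 stood apart. *Ifit1* in *non-silencing shRNA* replicate 3 had 228 normalized counts against 98.7 to 103 in the other controls. *Isg15* in the same library had 43.1 against 12.8 to 15.6. Without that library the log2 fold change of *Ifit1* was 0.47 and that of *Isg15* 0.70.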

How the results depend on the processing

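No member was called under the alternatives that gave it an adjusted p (0.463 to 0.995). *Isg15* and *Bst2* had none with DESeq2 and were not tested at 1 CPM. Of 143 member estimates under alternatives, 126 kept their direction and 17 did not, 16 of them with a library left out. Direction changed for *Irf9* with the widest transcript (0.12), and within the ranges of libraries left out in turn for *Stat2* (-0.023 to 0.13), *Ifit1* (-0.30 to 0.47), *Ifit3* (-0.25 to 0.49), *Isg15* (-0.22 to 0.70) and *Bst2* (-0.093 to 0.52). The panel's median of 0.12 was 0.23 with the gene length offset, 0.20 with the replicate block and 0.30 with both. *Fezf2* passed the threshold with DESeq2 (-0.28, adjusted p = 0.0256), was -0.18 with the length offset, with or without the block (adjusted p = 0.459 and 0.46 from edgeR), and ranged from -0.31 to -0.26 with libraries left out.

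Over all genes, 208 calls became 752 with DESeq2, 84 at 1 CPM, 103 without a filter and 1 with the gene length offset. With libraries left out they ranged from 0 (without *non-silencing shRNA* replicate 1) to 368 (without *non-silencing shRNA* replicate 2). They were 13, 9 and 17 without *Fezf2 shRNA* replicates 1, 3 and 4, and 130 and 4 without *non-silencing shRNA* replicates 3 and 4. Pathway calls among genes past 8 CPM (1) became 2 with DESeq2, 0 with the length offset, alone or with the block, and 0 to 1 with libraries left out. Marker calls at the same filter (0) became 4 with DESeq2, 1 with the block and 0 to 1 with libraries left out. The cause was not tested.

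Replicate numbers are shared by the groups, but the deviations of same-numbered libraries correlated at 0.31, 0.09, -0.13 and 0.17, so the numbers were not taken to pair samples. With a replicate block 90 genes were called, 2 with block and length offset, and no member. *Isg15* and *Bst2* had 11 to 48 raw counts and biological coefficients of variation of 46.9% and 44.5%. With this depth and this spread between libraries, changes within the intervals given remain compatible with the counts. What size of change could have been detected was not tested.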
